A study of Mus musculus with 12 samples.

Results

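The genes described here are 35 members of the p53 pathway and of the apoptosis machinery that it feeds, out of 53392 genes in the deposited tables. They were chosen by symbol from a list drawn up for this description, and all 35 matched 1 protein-coding gene each. Polyadenylated RNA was sequenced from 12 libraries of 129S4 mouse embryos in 4 groups of 3. Palatal shelves came from E13.5 embryos that were either Pdgfra+/+ (wild-type) or PdgfraPI3K/PI3K (PI3K), the second group being homozygous for a knock-in allele of the receptor PDGFRα that prevents it from binding the kinase PI3K. Maxillary processes came from E11.5 embryos that all carried Srsf3fl/fl, a conditional allele of a splicing factor gene. Controls were Wnt1-Cre+/+, which is without the Cre transgene, and the other group was Wnt1-Cre+/Tg, labelled conditional knockout (cKO). Wnt1-Cre acts in the neural crest lineage, so cells of the maxillary process outside that lineage, such as blood and endothelial cells, keep both Srsf3 copies. The overlying ectoderm was digested away before RNA was isolated. The labels call the libraries biological replicates and do not say whether each is 1 embryo or a pool.

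The transcription factor p53, encoded by Trp53, is kept low by the ubiquitin ligase MDM2 and its partner MDM4, and Mdm2 is itself a p53 target. When DNA damage, nucleolar stress or replication stress stabilises the protein, it binds response elements in DNA and switches on genes for cell cycle arrest, repair, metabolism and death, among them the BH3-only genes Bbc3 and Pmaip1 that act on the BCL2 family at mitochondria. The abundance of Trp53 mRNA is a poor guide to this activity because control is mostly on the protein. Cranial neural crest is known for its sensitivity to p53 activation, which underlies several craniofacial syndromes in mouse models.

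The p53 response element is a pair of half-sites, and 3 members carry one close to the consensus in their promoter windows. RefSeq windows (GRCm38.p6) that run from 250 bases before to 50 bases after a transcription start were available for 28 of the 35 members. The element searched for had 20 bases, with no base between the half-sites and at most 1 mismatch. The core C and G of each half-site had to match, so a mismatch was allowed only at the other bases. Such an element was found in 3 of those 28 genes (10.7%) and in 22 of the 27018 genes with a window (0.0814%). The consensus reads the same on both strands, so 1 search covers both. A perfect half-site of 10 bases was present in 10 members (35.7%) and in 2582 of all genes (9.56%). The 3 elements are shown because they are the sequence feature that these members share, with the element in capitals and 25 bases on each side, 5′ to 3′ on the strand of the gene. A match is a description of letters and not a measured binding site.
Cdkn1a, chr17:29090903-29090972, plus strand: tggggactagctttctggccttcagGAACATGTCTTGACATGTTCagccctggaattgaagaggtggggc
Ccng1, chr11:40755437-40755506, minus strand: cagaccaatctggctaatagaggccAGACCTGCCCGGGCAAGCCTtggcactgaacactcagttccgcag
Rps27l, chr9:66946271-66946340, plus strand: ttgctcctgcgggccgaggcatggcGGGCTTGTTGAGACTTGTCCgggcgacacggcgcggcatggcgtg
The Cdkn1a element lay 51 to 32 bases before the first of 2 RefSeq starts, and the window of the other start held none. The Ccng1 element lay 195 to 176 bases before the transcription start of Ccng1. Both elements were outside annotated genes. The Rps27l element lay 117 to 98 bases before the second of 2 RefSeq starts, inside the gene but in no annotated exon.

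The files give Salmon's estimated counts and TPM (a scale corrected for transcript length and library size). The palatal shelf libraries held 30.5 to 37.4 megacounts (SI prefix) of estimated counts and the maxillary process libraries 15.9 to 27.9 megacounts. Levels are given below as CPM (counts scaled by library size) after 1 normalization of all 12 libraries, and fold changes and tests come from a separate fit to the 6 libraries of each comparison. Total Srsf3 was not lower in the libraries labelled cKO: controls read 624, 599 and 555 CPM, and the libraries labelled cKO 470, 715 and 647 CPM, for a log2 fold change of 0.03 (SE 0.14, edgeR adjusted p = 0.9539). A gene total does not show the loss of part of a gene's exons, so this total does not check the label. Pdgfra in the PI3K libraries differed by 0.02 on the log2 scale (edgeR adjusted p = 0.9997), and an allele of this kind need not change the total. Mesenchyme markers summed to between 2583 and 13534 CPM in all 12 libraries. Ectoderm markers summed to 339 to 823 CPM in the palatal shelf libraries and to 1.83 to 19.8 CPM in the maxillary libraries.

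Levels of the members differed by more than 2 orders of magnitude. In TPM, which allows a comparison between genes, the highest members in wild-type palatal shelf were Rps27l, a ribosomal protein paralog, at 188 TPM, Trp53 at 188 TPM and Bax, the pore-forming executioner of mitochondrial apoptosis, at 115 TPM. These 3 and Mcl1, an inhibitor of that pore, were also the 4 members above 100 TPM in control maxillary process, where Trp53 stood at 225 TPM and Mcl1 at 122 TPM. Above 10 TPM were 27 of 35 members in both palatal groups and 19 in both maxillary groups. Gdf15, a secreted stress cytokine, was at or near 0 in every library, with at most 2 estimated counts, and entered no test. Fas, the death receptor for FAS ligand, held 4 to 6 estimated counts in each control maxillary library and 0, 2 and 0 in the libraries labelled cKO, too few to be tested between these groups.

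**Figure D1:**
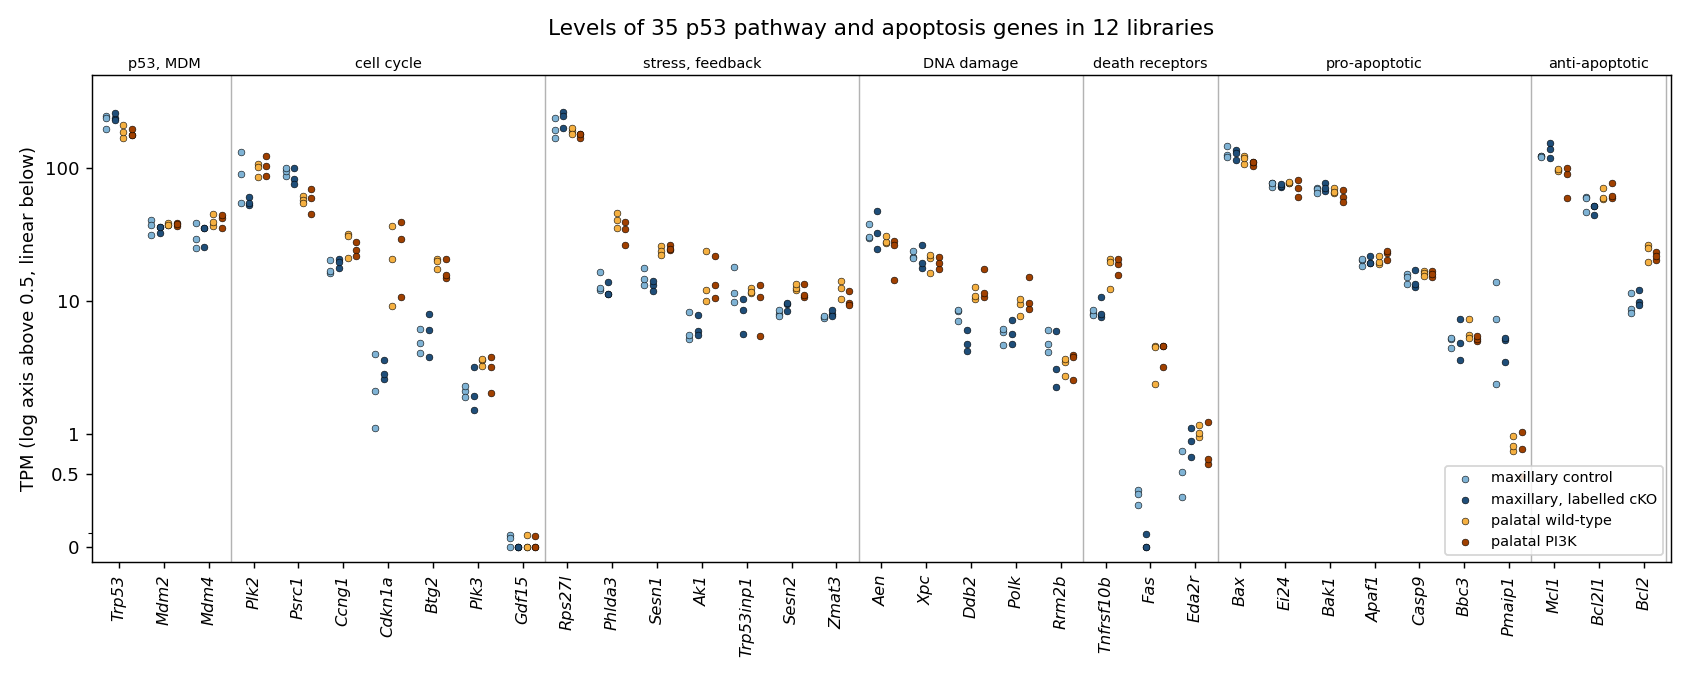
Level of each of the 35 genes in TPM (y axis, logarithmic above 0.5 TPM) in the 12 libraries, with 1 point per library and genes grouped by role. Trp53, Bax, Rps27l and Mcl1 sit near the top in all groups, Gdf15 sits at 0, and Cdkn1a, Btg2, Phlda3, Fas and Bcl2 stand higher in palatal shelf while Pmaip1 stands higher in maxillary process.

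The first comparison asked which members responded to loss of PI3K binding by PDGFRα in the palatal shelf. None of the 34 members tested passed a false discovery rate (FDR) of 0.05 in edgeR's quasi-likelihood test, against 0 of 16525 genes (0%). DESeq2 called 5 genes and none of the members. At an unadjusted p under 0.05 stood 1 member, beside 2.14% of all genes, and 1 member had groups that did not overlap, beside 5.99% of all genes. The median log2 fold change of the members was -0.09 (12 higher and 22 lower), and that of all genes was -0.01. Of the 34 estimates, 27 lay within 0.25 of 0 on the log2 scale, and the median half-width of their 95% intervals was 0.39.

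The core of the pathway was level between the palatal genotypes. Trp53 read 153, 193 and 167 CPM in wild-type and 160, 165 and 176 CPM in PI3K libraries, with a log2 fold change of -0.04 (95% interval -0.27 to 0.19). Mdm2 read 46.8, 51.4 and 47.3 CPM in wild-type and 45.1, 47.7 and 47.3 CPM in PI3K libraries (log2 fold change -0.06, interval -0.25 to 0.13). Mdm4 read 89.5, 91.0 and 101 CPM against 86.7, 91.8 and 95.1 CPM (log2 fold change -0.05, interval -0.24 to 0.14). The groups overlapped for all 3 genes, and none passed the edgeR test (adjusted p = 0.9997 for each). Mdm2 was among the steadiest genes of the table, with a pooled SD within groups of 0.06 on the log2 scale, at the 4.4th percentile of all genes tested.

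Cdkn1a, which encodes the cyclin-dependent kinase inhibitor p21, varied more between libraries of a group than between the group means. It read 35.2, 8.98 and 19.7 CPM in wild-type and 37.8, 29.2 and 10.4 CPM in PI3K libraries, so each group spans low and high libraries and the groups overlap. Its log2 fold change was 0.27 (SE 0.58, interval -1.10 to 1.64, edgeR adjusted p = 0.9997). The pooled SD within palatal groups was 0.96, at the 98.6th percentile of all genes tested, and the interval spans changes of over 2-fold in either direction. Ak1, an adenylate kinase, was the next most variable member of the palatal shelf (SD 0.55, 93.9th percentile). Its highest libraries were wild-type 1 at 22.9 CPM and PI3K 1 at 19.8 CPM, and the other 4 lay between 9.96 and 13.4 CPM.

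Among the death receptors, Eda2r was the only member of the 34 with an unadjusted p under 0.05. This receptor of the ectodysplasin branch of the TNF receptor family read 2.58, 1.66 and 2.33 CPM in wild-type and 1.40, 1.30 and 1.25 CPM in PI3K libraries. In CPM every PI3K library lay below every wild-type library. In TPM the groups overlapped: wild-type libraries read 1.16, 0.940 and 1.01 TPM and PI3K libraries 0.590, 1.23 and 0.638 TPM, so PI3K library 2 was the highest of the 6. In counts the log2 fold change was -0.74 (SE 0.28, a 1.68-fold lower level, unadjusted p = 0.03027), and it did not pass adjustment (edgeR adjusted p = 0.9997). For Eda2r on log2(TPM + 1) limma gave -0.18 (unadjusted p = 0.3118, adjusted p = 0.9998). Fas read 3.30, 1.74 and 3.15 CPM in wild-type and 2.14, 3.44 and 3.27 CPM in PI3K libraries, with overlap. Tnfrsf10b, the mouse TRAIL receptor, gave a log2 fold change of 0.06 (SE 0.21).

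The apoptosis genes proper gave small differences in the palatal shelf. Of the 7 pro-apoptotic members 2 had positive and 5 negative estimates, from -0.16 for Ei24, a protein of the endoplasmic reticulum, to 0.18 for Apaf1, the scaffold of the apoptosome, and none passed the edgeR test. The anti-apoptotic genes Bcl2, Bcl2l1 and Mcl1 gave log2 fold changes of -0.11, 0.08 and -0.27. Mcl1 was 137, 120 and 121 CPM in wild-type and 114, 70.3 and 131 CPM in PI3K libraries, where PI3K library 2 was the low one. The same library was the lowest of the 6 for 11 of 34 members and the highest for 7, beside 25.7% and 26.2% of all genes, and it was low for Aen (18.1 CPM against 33.3 to 40.3 in the others), an exonuclease induced by p53, and Trp53inp1 (16.5 against 30.1 to 37.9). In TPM, Bax exceeded Bcl2 by 4.66 to 5.47 times in wild-type and by 4.76 to 5.15 times in PI3K libraries.

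**Figure D2:**
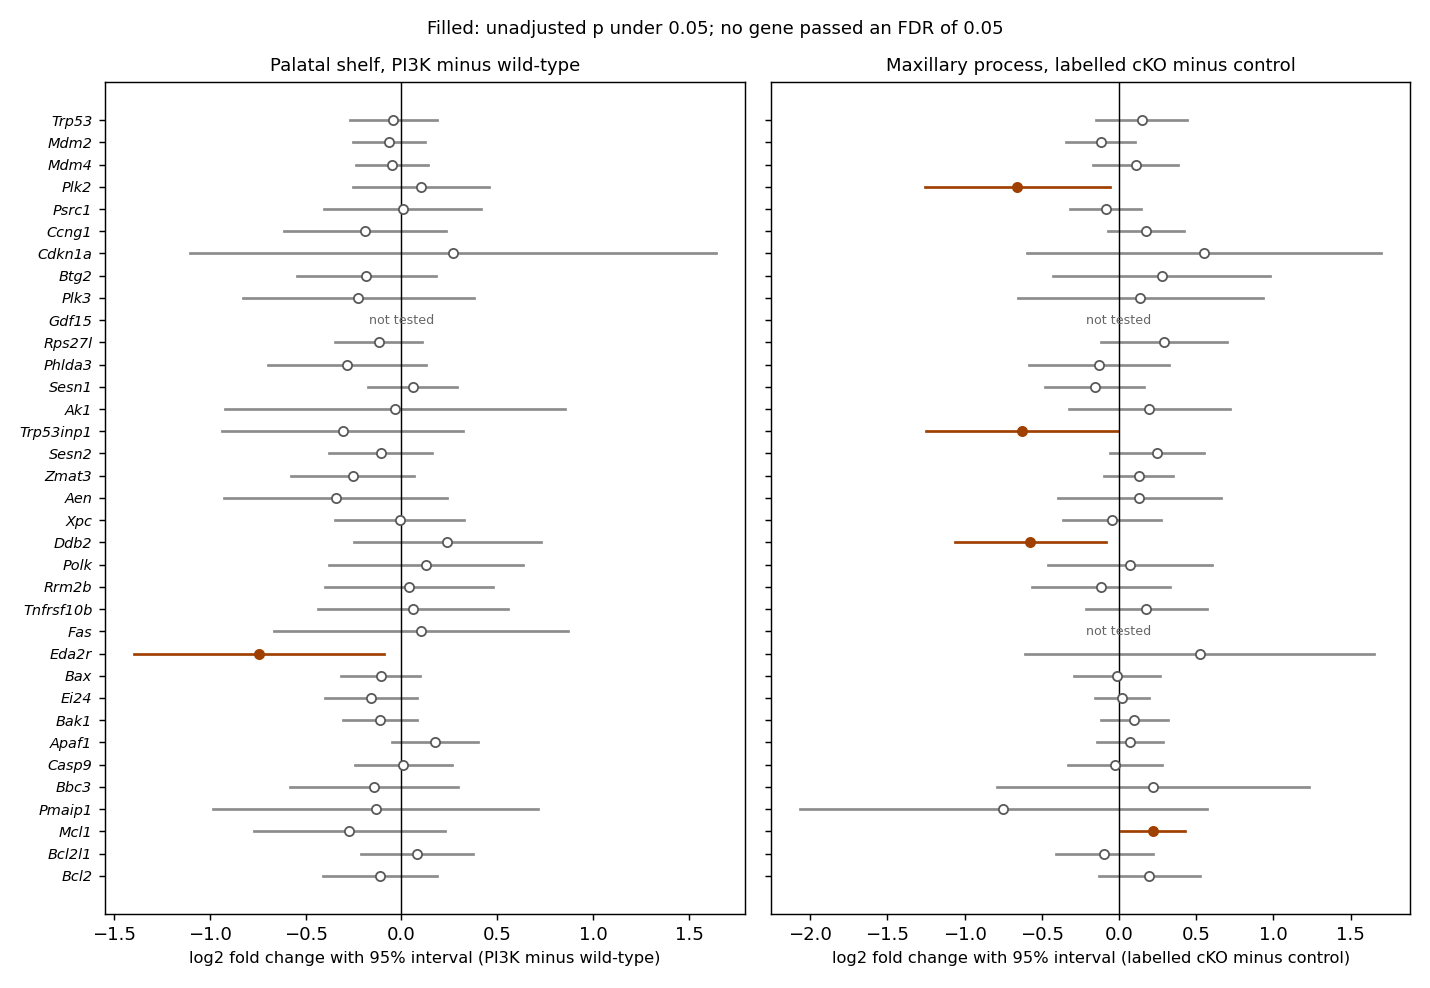
Log2 fold change (x axis) with its 95% interval for each member in the PI3K comparison (left) and in the comparison of libraries labelled cKO with controls (right). Filled points mark the 1 member on the left and the 4 on the right with an unadjusted p under 0.05, none of which passed an FDR of 0.05.

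The second comparison asked which members differed in the maxillary process of embryos labelled as lacking Srsf3 in the neural crest lineage. None of the 33 members tested passed an FDR of 0.05 in edgeR, where 12 of 14254 genes did (0.0842%), and DESeq2 called none of them among 356 genes. At an unadjusted p under 0.05 stood 4 members, which is 1 higher and 3 lower, beside 12.2% of all genes. Groups did not overlap for 3 members, beside 17.7% of all genes. The first count is near the background share and the second is below it. The median log2 fold change of the members was 0.10 (20 higher and 13 lower) and that of all genes 0.00 after rounding to 2 decimals, with 25 of 33 estimates within 0.25 of 0 and a median half-width of the intervals of 0.33.

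Trp53 and its inhibitors did not differ beyond their spread. Trp53 read 253, 244 and 183 CPM in controls against 240, 280 and 237 CPM in libraries labelled cKO (log2 fold change 0.15, interval -0.15 to 0.44). Mdm2, which rises when p53 is active, read 65.5, 57.9 and 57.1 CPM in controls against 53.9, 53.5 and 59.8 CPM in libraries labelled cKO (log2 fold change -0.12, interval -0.34 to 0.11). Mdm4 read 80.8, 72.2 and 90.1 CPM against 92.6, 81.5 and 89.7 CPM (log2 fold change 0.11, interval -0.17 to 0.39). The groups overlapped for each of these genes, and the smallest edgeR adjusted p among them was 0.674.

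The cell cycle targets gave mixed signs. Cdkn1a read 1.24, 1.38 and 3.98 CPM in controls against 3.95, 2.81 and 3.14 CPM in libraries labelled cKO, so control library 3 was the highest of all 6 and the groups overlap. The log2 fold change was 0.55 (SE 0.49, interval -0.60 to 1.70, edgeR adjusted p = 0.706). For Cdkn1a it was 1.34 without control library 3 (edgeR adjusted p = 0.4173) and 0.27 without control library 1. Plk2, a polo-like kinase that p53 induces, read 91.0, 149 and 199 CPM in controls against 96.6, 91.3 and 92.6 CPM in libraries labelled cKO. The 3 libraries labelled cKO were close to each other and to control library 1, and the other 2 controls were higher. The log2 fold change was -0.66 (SE 0.26, unadjusted p = 0.03494, edgeR adjusted p = 0.382), and it was -0.35 without control library 3. Ccng1, an atypical cyclin, read 35.3, 36.0 and 39.6 CPM in controls against 43.7, 40.0 and 42.2 CPM in libraries labelled cKO, higher in all 3 (log2 fold change 0.17, edgeR adjusted p = 0.5533).

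Of the stress and repair genes, Trp53inp1 and Ddb2 had negative estimates. Trp53inp1, which promotes p53-dependent death and autophagy, read 32.6, 39.0 and 55.5 CPM in controls against 33.9, 19.9 and 29.1 CPM in libraries labelled cKO. The groups overlap at 1 library, labelled cKO 1. The log2 fold change was -0.63 (SE 0.27, unadjusted p = 0.04898, edgeR adjusted p = 0.4077), and it was -0.36 without control library 3. Ddb2, a damage sensor of nucleotide excision repair, read 7.68, 8.41 and 7.95 CPM in controls against 6.39, 4.69 and 5.13 CPM in libraries labelled cKO, with every library labelled cKO below every control. Its log2 fold change was -0.58 (SE 0.21, unadjusted p = 0.02664, edgeR adjusted p = 0.3654). Ddb2 overlaps Acp2 on the opposite strand, and the sources used here do not state whether counting used the strand, so this value is uncertain. Xpc, which acts beside it in the same repair pathway, gave -0.05 (SE 0.14).

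Mcl1 was the one anti-apoptotic gene with a low unadjusted p. It read 173, 166 and 159 CPM in controls against 176, 221 and 189 CPM in libraries labelled cKO, and every library labelled cKO was above every control, the nearest pair by a narrow margin. The log2 fold change was 0.22 (SE 0.09, unadjusted p = 0.03938, edgeR adjusted p = 0.3909). Pmaip1, whose protein NOXA neutralises MCL1, read 22.2, 11.6 and 3.43 CPM in controls against 7.89, 5.78 and 8.32 CPM in libraries labelled cKO. The controls alone span the whole range of the libraries labelled cKO, and the log2 fold change of -0.75 had an interval from -2.07 to 0.57. For Pmaip1 it was -0.03 without control library 1 and -1.19 without control library 3 (edgeR adjusted p = 0.4253). Bbc3, which encodes PUMA, gave 0.22 (SE 0.43), Bax -0.01 (SE 0.12) and Bak1, the other pore-forming protein, 0.10 (SE 0.09). Bax exceeded Bcl2 in TPM by 10.6 to 17.0 times in controls and by 9.48 to 13.9 times in libraries labelled cKO.

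Other genes around the pathway gave the same kind of result in both comparisons. In libraries labelled cKO, no gene of the lists of p53 regulators (18 tested), other p53 targets (20), other BCL2 family members (8), caspases and their inhibitors (19) and cell cycle genes repressed through p21 (12) passed an FDR of 0.05. Unadjusted p was under 0.05 for 3 of 20 other targets, beside 12.2% of all genes. These were Thbs1, a matrix glycoprotein (log2 fold change 1.00), Igfbp3, which binds insulin-like growth factors (0.89), and Perp, a desmosomal protein (1.85). Unadjusted p was also under 0.05 for Trp63 (1.60) and Hipk2 (0.37), 2 of 18 regulators, and for the inhibitor Birc6 (0.42), 1 of 19 caspases and inhibitors. In the PI3K comparison unadjusted p was under 0.05 for 1 of 22 other targets, Sfn (-0.47), and 1 of 10 other BCL2 family members, Bmf (0.25). The share of all genes was 2.14%. No gene of these lists passed an FDR of 0.05 in that comparison. Levels of the cell type markers are given beside these values. In libraries labelled cKO all 6 endothelial markers had higher estimates, summing to 417 to 790 CPM against 306 to 319 CPM in controls, ectoderm markers summed to 9.76 to 19.8 against 1.83 to 8.66 CPM, macrophage markers to 23.5 to 42.3 against 15.9 to 21.4 CPM, and neuron and glia markers to 48.2 to 68.1 against 69.3 to 144 CPM. Of the mesenchyme markers 6 of 7 had lower estimates, with sums of 2583 to 4102 against 3931 to 6030 CPM, and all 8 red blood cell markers had higher ones, with sums of 4138 to 10444 against 3672 to 6433 CPM. Skeletal muscle markers summed to 9.69 to 19.2 against 2.19 to 11.7 CPM. Groups did not overlap for 6 of 6 endothelial, 4 of 6 ectoderm, 2 of 6 macrophage and 2 of 5 neuron and glia markers tested. The same held for 3 of 7 mesenchyme, 1 of 2 skeletal muscle and 0 of 8 red blood cell markers, beside 17.7% of all genes. Unadjusted edgeR p was under 0.05 for the same numbers, except 3 of 6 macrophage markers, beside 12.2% of all genes. Trp63 is also one of the ectoderm markers. In the PI3K comparison skeletal muscle markers summed to 25.7 to 151 CPM against 1.42 to 39.0 CPM in wild-type, with overlap for each of the 6. All 6 neuron and glia markers had higher estimates in PI3K libraries (sums of 35.2 to 63.7 against 28.7 to 36.5 CPM). Of these, 3 were without overlap, beside 5.99% of all genes. All 8 red blood cell markers had lower estimates in PI3K libraries (sums of 1148 to 1781 against 1134 to 2631 CPM). No marker in either genotype comparison passed an FDR of 0.05 in edgeR. The part of these cell types in the values of the members was not tested, and in bulk tissue fewer cells of a type and less RNA per cell cannot be told apart.

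The difference between the genotype effects was tested directly, since these comparisons share no library. None of 34 members passed an FDR of 0.05 in edgeR's interaction contrast, where 7 of 16877 genes did (0.0415%). At an unadjusted p under 0.05 stood 5 members, beside 8.69% of all genes. Fas is 1 of the 5, but it entered this fit only through its palatal libraries and held at most 6 estimated counts in each maxillary library, so no value is read from it. The others were Ddb2, Plk2, Eda2r and Zmat3, with interaction p adjusted to between 0.4793 and 0.563 by edgeR.

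Many members are spliced into transcripts of different length, and Srsf3 is a splicing factor, so the mean effective length of each gene's transcripts was followed as the ratio of estimated count to TPM. The ratio was centred on the median gene of each library, and only genes that reached 50 counts in each of the 6 libraries were kept. In libraries labelled cKO none of 29 members tested passed an FDR of 0.05 or an unadjusted p under 0.05 in limma, beside 0.00909% and 5.13% of 11002 genes. The smallest unadjusted p was that of Mdm2 (0.141), with a shift of -0.11 (log2). In PI3K libraries none of 32 members passed the FDR, beside 0.00775% of 12907 genes, and 1 had an unadjusted p under 0.05, beside 3.89%. That member was Polk, a polymerase that copies past damaged bases. Its effective length was 1.22, 1.41 and 1.278 times that of the median gene in wild-type and 1.16, 1.14 and 1.20 times in PI3K libraries. Every PI3K library was below every wild-type library, with a shift of -0.16 (limma unadjusted p = 0.0393, adjusted p = 0.9979).

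The third comparison set wild-type palatal shelf at E13.5 beside control maxillary process at E11.5, and here many members differed. Tissue, embryonic day, allele background and the lane tags in the labels all change together between these groups and cannot be told apart. Ectoderm marker RNA changes with them, at 605 to 780 CPM in wild-type palatal shelf and 1.83 to 8.66 CPM in control maxillary process. The 2 count tables were made separately, and were normalized here as unnormalized counts in 1 fit. Of 34 members tested, 17 passed an FDR of 0.05 in edgeR, beside 50.6% of 15752 genes. Higher in palatal shelf were 12 members, beside 27.1% of all genes, and lower were 5, beside 23.4%. Fas is counted among the 12 although it passed the low-count filter only through the palatal libraries, where it was high. Groups did not overlap for 22 members, beside 62% of all genes. The share of members called is near that of the whole table. The median log2 fold change was 0.13 for the members and 0.03 for all genes. On log2(TPM + 1) the median of all genes moved to 0.16.

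Cdkn1a showed the greatest difference among the cell cycle members. It read 35.2, 8.98 and 19.7 CPM in wild-type palatal shelf and 1.24, 1.38 and 3.98 CPM in control maxillary process, and every palatal library was above every maxillary one. It was 9.46-fold higher in palatal shelf (log2 fold change 3.24, SE 0.62, edgeR adjusted p = 0.004145). The wide spread within both groups sets the error of this value: the log2 fold change was 2.69 without wild-type library 1 and 4.00 without control library 3. Btg2, an antiproliferative gene of the BTG/TOB family, read 29.9, 25.04 and 28.3 CPM in palatal shelf and 6.71, 10.2 and 7.27 CPM in maxillary process. Its groups stood well apart, at a log2 fold change of 1.79 (SE 0.18, edgeR adjusted p = 0.0003482). Ccng1 also rose in palatal shelf (0.50), although it lost its call without wild-type library 1 or 3 or any 1 control library, and Psrc1, a mitotic spindle gene, was lower (-0.79, SE 0.09, edgeR adjusted p = 0.0005905). Plk2 (-0.05) and Plk3 (0.58, edgeR adjusted p = 0.05347) did not pass. Plk3 passed with a filter of more than 1 CPM in at least 3 libraries (edgeR adjusted p = 0.03989) and in limma on log2(TPM + 1) (adjusted p = 0.02221) and log2(TPM + 0.1) (adjusted p = 0.03584). In a list of cell cycle genes described elsewhere as repressed through p21, 12 of 12 were lower in palatal shelf, all past the FDR. Their median log2 fold change was -1.01, beside 23.4% of all genes called lower and a median of 0.03. Whether p21 acted on these genes here was not tested.

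**Figure D3:**
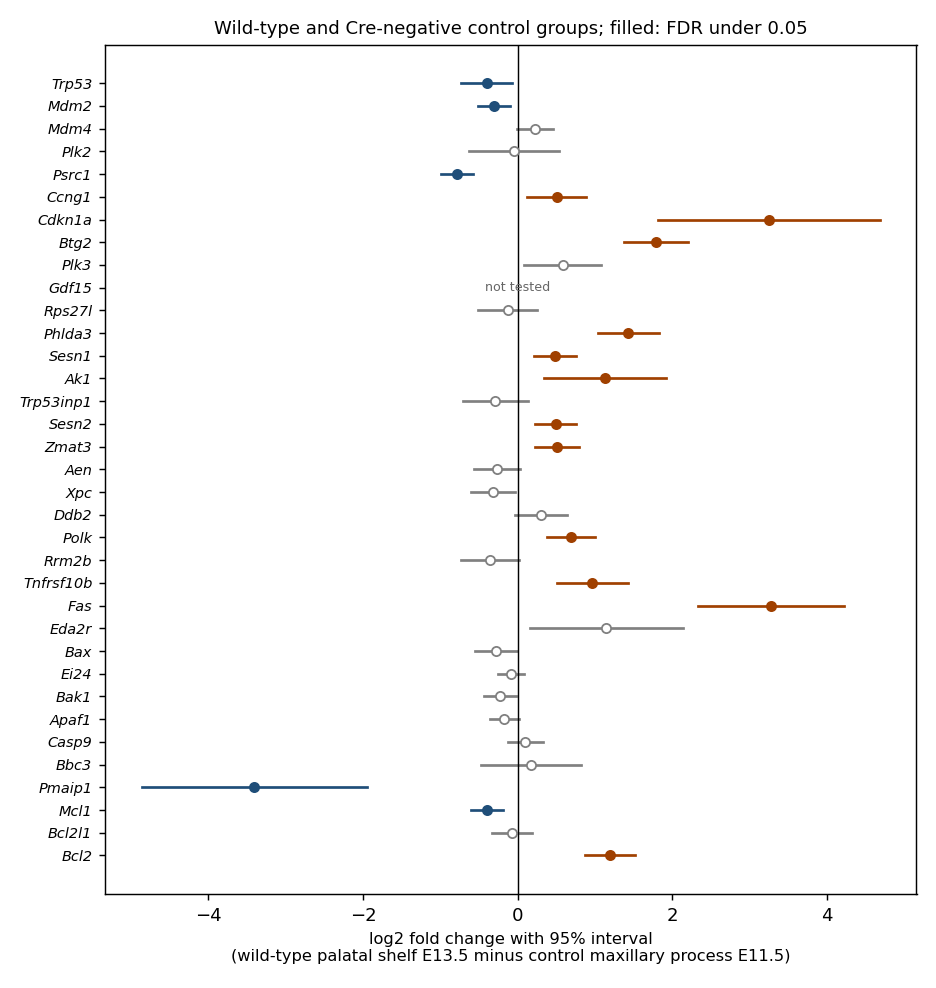
Log2 fold change (x axis) with its 95% interval for each member between wild-type palatal shelf at E13.5 and control maxillary process at E11.5. Filled points mark the 17 members past an FDR of 0.05, of which 12 were higher and 5 lower in palatal shelf. Cdkn1a and Fas lie near 3, and Pmaip1 lies near -3.

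Of 7 stress, metabolism and feedback genes, 5 were called higher in palatal shelf and none lower, beside 27.1% and 23.4% of all genes. Phlda3, which competes with AKT for membrane lipids, read 28.9, 24.96 and 31.5 CPM in palatal shelf and 9.70, 13.1 and 9.14 CPM in maxillary process, without overlap (log2 fold change 1.43, SE 0.17, edgeR adjusted p = 0.0006356). Ak1 read 22.9, 9.96 and 11.2 CPM against 8.14, 6.18 and 6.08 CPM. Wild-type library 1 carried much of its difference: the log2 fold change was 1.13 (SE 0.34, edgeR adjusted p = 0.02665) and 0.66 without that library. It lost its call without control library 2 (adjusted p = 0.09587) or 3 (adjusted p = 0.07455) in edgeR. The sestrins Sesn1 and Sesn2, which restrain mTORC1, were higher by 0.48 and 0.49 and Zmat3, an RNA-binding p53 target, by 0.51 on the log2 scale, and Sesn1 lost its call without control library 2 (edgeR adjusted p = 0.05271). Trp53inp1 (-0.29) and Rps27l (-0.13) did not pass, although Trp53inp1 (-0.47) did without control library 1. Of the 5 DNA damage genes only Polk passed in counts, higher in palatal shelf by 0.69 (SE 0.13), and without control library 3 the exonuclease gene Aen also passed (-0.38). Ddb2 (0.30) passed in limma on log2(TPM + 1) (0.45, adjusted p = 0.04693) and log2(TPM + 0.1) (0.49, adjusted p = 0.045).

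All 3 death receptor genes had higher estimates in palatal shelf. Tnfrsf10b was called, beside 27.1% of all genes called higher. Fas also passed the FDR, but only after the palatal libraries had carried it through the low-count filter, so its call is not read. Fas read 3.30, 1.74 and 3.15 CPM in palatal shelf and 0.326, 0.240 and 0.274 CPM in maxillary process, so every palatal library was above every maxillary one. Its log2 fold change is given as a description, since the maxillary libraries alone were too low to be tested: it was 3.28 in counts and 1.80 on log2(TPM + 1). Tnfrsf10b read 34.96, 20.7 and 31.7 CPM against 15.5, 15.0 and 14.5 CPM, again without overlap (0.96, SE 0.20, edgeR adjusted p = 0.005604). Eda2r gave 1.15 (SE 0.43) and missed the threshold (edgeR adjusted p = 0.05514), which it passed without control library 3 (1.71, edgeR adjusted p = 0.009688). Eda2r also passed in 1 fit of all 12 libraries (edgeR adjusted p = 0.03199) and in limma on log2(TPM + 1) (0.42, adjusted p = 0.04642).

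Pmaip1 went the other way. It read 1.34, 1.03 and 1.11 CPM in palatal shelf and 22.2, 11.6 and 3.43 CPM in maxillary process, so even the lowest maxillary library exceeded all palatal ones. It was 10.6-fold lower in palatal shelf (log2 fold change -3.40, SE 0.63, edgeR adjusted p = 0.003596), and the log2 value of Pmaip1 was -2.70 without control library 1 and -2.02 on log2(TPM + 1). No other pro-apoptotic member passed: Bax (-0.29), Bak1 (-0.22), Apaf1 (-0.17) and Ei24 (-0.09) had negative and Casp9 (0.10) and Bbc3 (0.17) positive estimates. Without control library 3, Bax (-0.40) and Bak1 (-0.32) passed. The anti-apoptotic genes split. Bcl2 read 76.6, 104 and 97.2 CPM in palatal shelf and 38.7, 36.7 and 46.8 CPM in maxillary process, without overlap (log2 fold change 1.19, SE 0.14, edgeR adjusted p = 0.0005921). Mcl1 was lower in palatal shelf (-0.39, SE 0.09, edgeR adjusted p = 0.00817) and Bcl2l1 gave -0.07 (SE 0.11). The TPM ratio of Mcl1 to Bcl2 was 3.59 to 4.99 in palatal shelf and 10.7 to 15.1 in maxillary process.

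In the core, Trp53 was lower in palatal shelf by a log2 fold change of -0.40 (SE 0.14, edgeR adjusted p = 0.04553), with wild-type library 2 (193 CPM) above control library 3 (183 CPM), and lost its call without wild-type library 1 or 3 or control library 1 or 2. Mdm2 was lower in counts (log2 fold change -0.30, SE 0.09, edgeR adjusted p = 0.02405), where the groups did not overlap and the call was lost without wild-type library 1 or 3 or control library 1. It was not lower in TPM, where limma gave 0.07 on log2(TPM + 1) (adjusted p = 0.6518) beside a median of 0.16 for all genes. The effective length of Mdm2 was 0.926, 0.989 and 0.947 times that of the median gene in palatal shelf and 1.02, 1.19 and 1.09 times in maxillary process, a shift of -0.20 (limma adjusted p = 0.1092). Rps27l was the 1 of 29 members whose effective length passed an FDR of 0.05 in this comparison (0.12, limma adjusted p = 0.04177), beside 8.67% of 11093 genes. Mdm4 gave 0.22 (SE 0.10) and passed in counts only without control library 3 (0.28). The tested genes outside the membership moved as well: 11 of 19 p53 regulators were lower and 2 higher past the FDR, and 12 of 22 other p53 targets were higher and 4 lower, beside 27.1% of all genes called higher and 23.4% lower. In the maxillary genotype comparison 18 regulators and 20 other targets passed the low-count filter. The genes counted as higher here may therefore include some that passed it only through the palatal libraries. Perp, Sfn, Trp63 and Trp73, named after their values were seen, were among the higher genes, with log2 fold changes of 7.25, 6.81, 6.03 and 8.38. These values are given as a description, in the tissue whose libraries also held far more ectoderm marker RNA. The part of ectoderm cells in the values of the members was not tested.

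**Figure D4:**
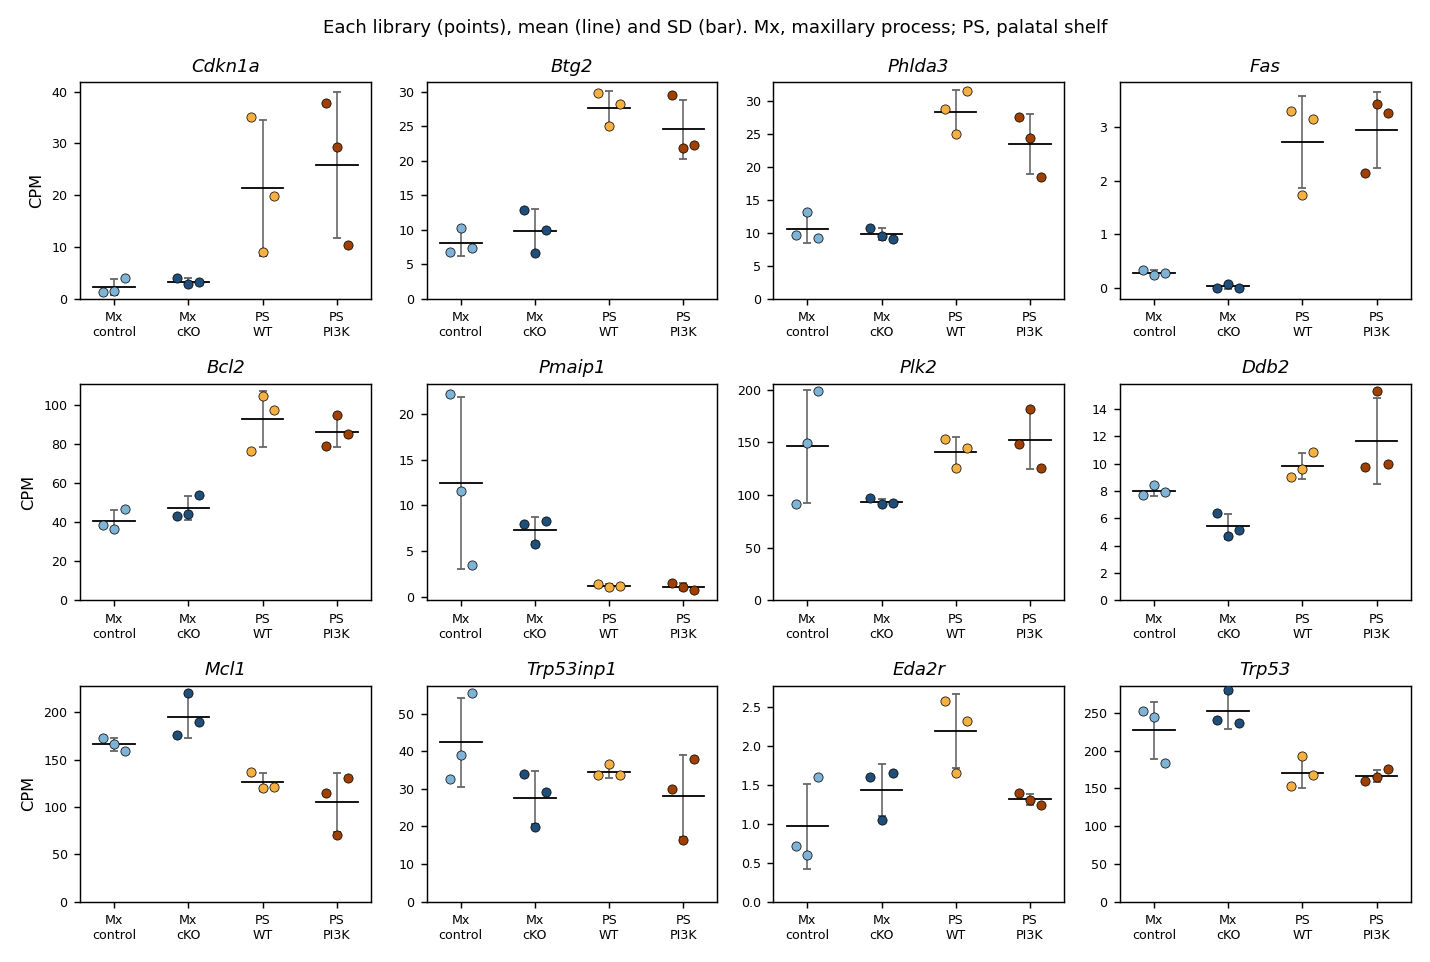
CPM (y axis, separate scale per gene) of 12 members in the 12 libraries, with the mean as a line and the SD as a bar (n = 3 libraries per group). Mx marks maxillary process and PS palatal shelf. Cdkn1a spreads widely inside both palatal groups, Pmaip1 spreads from 3.43 to 22.2 CPM among the controls, and every library labelled cKO lies below every control for Ddb2.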

How the data were processed

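The submitters' processing notes name Salmon 1.1.0, STAR 2.7.0, DESeq2 1.28.1 and the build mm10, with no role or order, and the annotation is not given in the sources used here. The authors deposited, for each tissue, estimated counts per gene and TPM values, both from Salmon per the file headers' names. Gene symbols came from the reference annotation by Ensembl identifier (53355 of 53392 matched). Estimated counts were rounded and tested with edgeR 4.0.16 (R 4.3.3; TMM, default low-count filter, quasi-likelihood F-test) on the 6 libraries of each comparison, with Benjamini-Hochberg adjustment over all genes tested and an FDR of 0.05. Effective length was tested with limma 3.58.1. Scripts were tested on simulated data. p-values measure the spread between 3 libraries a group. Members overlapping another annotated gene number 15, so their counts may be shared, and Rps27l is a close copy of Rps27.

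The members and gene lists were chosen with earlier results of these data known. Given library by library are Trp53, Mdm2, Mdm4, Cdkn1a, members with an unadjusted p under 0.05 in a genotype comparison, and the 8 called members with the largest tissue difference. Others named with their values were chosen after these were seen. Alternatives were DESeq2 1.42.0 and its size factors, other filters, limma on log2(TPM + 1) and log2(TPM + 0.1), 1 fit of all 12 libraries, a replicate block and leaving out each library. The effective length test between tissues was added after the data were seen. No pair of libraries of a group agreed within sampling noise.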

Additional observations from a re-analysis of the deposited data

How the results depend on the processing

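The number of members past the FDR was 0 in both genotype comparisons under every setting run, DESeq2 included. Genes called in libraries labelled cKO moved from 12 to 143 with no filter on low counts, 356 with DESeq2, 105 with all 12 libraries in 1 fit and 2 (without control 2) to 29 (without cKO 1) when 1 library was left out. DESeq2 called 5 genes in the PI3K comparison. On log2(TPM + 1) and log2(TPM + 0.1), the median log2 fold change of the members was 0.0265 and 0.0234 in libraries labelled cKO and 0.2149 and 0.2351 between tissues, and on log2(TPM + 1) it was -0.0522 in PI3K libraries. The median of all genes moved too under these settings. It was -0.0412 and -0.0463 in libraries labelled cKO and 0.1598 and 0.1928 between tissues. In PI3K libraries the median of all genes on log2(TPM + 1) was -0.005. Leaving out 1 library moved the median in libraries labelled cKO between 0.0091 (without cKO 1) and 0.1037, with 0.0291 without control 3. Mdm2 between tissues changed sign to 0.0687 on log2(TPM + 1) and 0.0706 on log2(TPM + 0.1), and the cause was not tested. The sign changed in some setting for 15 of 34 in PI3K, 13 of 33 in libraries labelled cKO and 7 of 34 between tissues, Mdm2 being the only called one. Of the 17 members called between tissues, 11 were called in all 13 settings. Fas is counted among these 11 although it passed the low-count filter only through the palatal libraries. Ak1, Ccng1, Mcl1, Mdm2, Sesn1 and Trp53 lost the call in some settings, while Plk3, Ddb2, Eda2r, Trp53inp1, Mdm4, Aen, Bax and Bak1 gained it in some. Correlations of same-numbered deviations from the group mean ran from -0.2203 to 0.533 in palatal shelf and from 0.0804 to 0.2299 in maxillary process. Not every library correlated best with its own number. Deviations from a mean of 3 libraries depend on each other, so these correlations cannot decide whether the replicate numbers pair the libraries. With the replicate block, genes called in libraries labelled cKO numbered 40 and members called 0 in both genotype comparisons. With 3 libraries a group, differences within the intervals given were not excluded, and levels under about 1 CPM rest on few counts.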

Other observations

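Control maxillary library 3 was the lowest of 6 for 11 of 33 members and the highest for 4, beside 24.5% and 20.9% of all genes. It held the highest Cdkn1a (3.98 CPM), Plk2 (199 CPM) and Trp53inp1 (55.5 CPM) of the 6 maxillary libraries and the lowest Pmaip1 (3.43 CPM) and Trp53 (183 CPM). These members were singled out after their values were seen. Within groups, the median pooled SD of the members on the log2 scale was 0.19 in palatal shelf and 0.18 in maxillary process, and that of all genes tested was 0.19 and 0.20. Apaf1 (0.07), Ccng1 (0.08) and Ei24 (0.08) varied least in maxillary process, and Pmaip1 (0.93), Bbc3 (0.56) and Cdkn1a (0.56) varied most.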
